A study of Homo sapiens with 4 samples.

Results

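The response to nutlin-3a was read in A549 cells that stably carried a lentiviral short hairpin RNA (shRNA) against LIMA1. A549 is an established human lung adenocarcinoma cell line, and LIMA1 encodes EPLIN, an actin-binding protein. The comparison was set by 2 of the 4 libraries of the series. In one the LIMA1 shRNA cells had been given nutlin-3a at 10 µM, in the other the same line had been left without it, and total RNA was taken 24 h later. The other 2 libraries, from cells with a negative control shRNA under the same 2 treatments, are given only side by side. Sample titles write si where the protocols write shRNA, and the header of the nutlin-3a library writes EPLIN for LIMA1. The labels leave unstated whether the line was a clone or a pool. The design text asks how p53-driven gene induction changes when LIMA1 is lowered.

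Values are fragment counts per gene scaled to a common library size, as deposited, and not divided by gene length. They are called normalized counts, and levels are compared only within a gene. A gene was taken as measured when the mean of its 2 values was at least 30, which kept 12679 of the 42113 gene models, 643 of them long noncoding models whose names start with lnc-. Differences are log2(normalized count + 1) with nutlin-3a minus the same without it. A gene is called higher at a difference of at least 1 and lower at -1 or below. With 1 library a side there was no replicate check and no test, so every difference compares these libraries. Intervals in brackets are exact 95% Clopper-Pearson intervals for the ratio of fragment counts and cover counting error only. Those given with a share of genes that have a promoter motif are instead over numbers of genes. They take the genes as independent and do not cover counting error. The libraries held 16.5 M fragments without and 15.2 M with nutlin-3a.

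p53 is a transcription factor that is kept low by MDM2, a ubiquitin ligase and itself a p53 target. Nutlin-3a occupies the p53 pocket of MDM2, so p53 builds up and switches on genes for arrest, death, repair and metabolism. One of these, CDKN1A, makes the CDK inhibitor p21, after which the DREAM complex and the RB family hold down E2F and cell division genes.

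LIMA1 stood at 68.3 normalized counts without and 133 with nutlin-3a, against 416 and 866 in the control shRNA cells, so it was low in both libraries that carry its hairpin. Its ratio in the LIMA1 shRNA cells was 1.95 (1.44 to 2.65), a difference of 0.95 that was under the size of a call. Keratins and aldo-keto reductases typical of A549 were present in both libraries (KRT8 at 73787 and 82811, AKR1B10 at 48907 and 73999), and CDKN2A and CDKN2B, which A549 has lost, were listed at 0. MTAP, their neighbour and the third gene of that list, was at 69.3 and 61.1. Of the alveolar type 2 markers SFTPA1 and SFTPB were listed at 0, NKX2-1 at 0.99 and 0, and SFTPC at 1.98 and 0. SFTPD was at 3.96 and 19.3 and NAPSA at 5.94 and 17.2, so both were detected at low levels. None of these markers reached the mean for being measured. Of 10 immune markers 2 were measured, CD68, a lysosomal protein gene of macrophages with shared reads (613 and 860), and the monocyte receptor CD14 (75.2 and 65.4). LYZ was at 22.8 and 21.7, and PTPRC, CD3E, CD3D and MS4A1 were listed at 0. The summed level of that list was 714 untreated and 947 with nutlin-3a, and its part in the results was not tested. None of 7 endothelial markers was measured. Of the fibroblast markers COL1A1 alone was measured, at 43.5 and 19.3 (-1.13, called lower), against 70.7 and 30.8 in control shRNA cells. LUM was at 23.8 and 10.7, under the mean for being measured. In RNA from a whole culture, fewer cells of a kind and less RNA per cell cannot be told apart.

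With nutlin-3a, 933 genes (7.36% of those measured) were higher and 764 (6.03%) lower, while 10982 (86.62%) were not called. The median over all genes was -0.02, with quartiles at -0.35 and 0.35. Large differences leaned to the low side: 62 genes were higher by 4 or more and 111 were lower by as much. The higher genes had a median of 69.4 normalized counts untreated and 251 with nutlin-3a, and the lower genes 587 and 119, so the untreated values of the higher genes rest on the fewest fragments. The higher genes together went from 2.13% to 7.11% of all fragments, and the lower genes from 6.48% to 1.88%. Of the lower genes 311 (40.71%) belonged to at least 1 of the 62 gene lists used here, against 139 (14.9%) of the higher ones and 10.95% of all measured genes. The lists were chosen with earlier results of these data known, so these shares describe the lists and are no independent result.

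**Figure D1:**
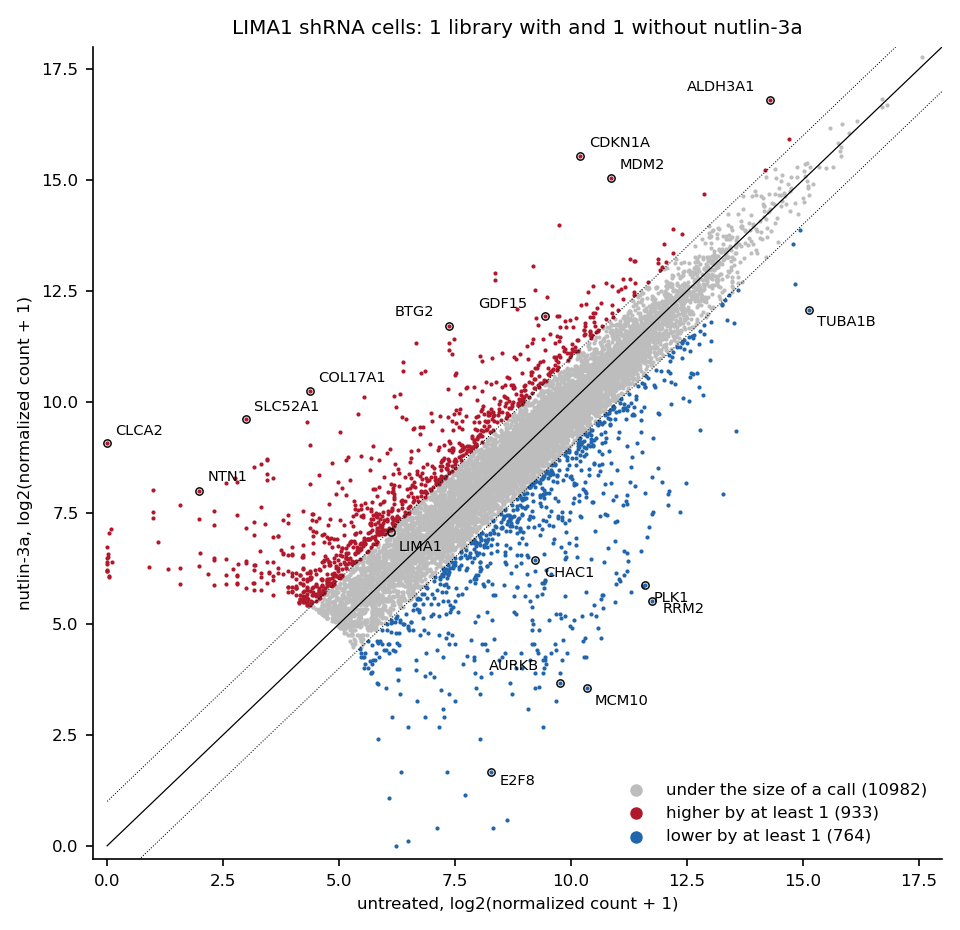
Level of each measured gene without (x axis) and with (y axis) nutlin-3a in LIMA1 shRNA cells, as log2(normalized count + 1), 1 library each. The solid line marks equal values and the dotted lines a difference of 1; 933 points lie above the upper dotted line and 764 below the lower one.

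Called genes of the p53 circuit were mostly higher. MDM2 stood at 1857 normalized counts untreated and 33982 with nutlin-3a, an 18.3-fold higher value (17.5 to 19.2), whereas its relative MDM4 was at 390 and 441. Of 21 measured genes of the circuit 9 were higher and 1 lower, and the median was 0.64 beside -0.02 for all genes. PPM1D, whose phosphatase WIP1 removes activating phosphates from p53, was at 392 and 1082, a difference of 1.46. ZMAT3, an RNA-binding protein gene, was at 457 and 4392, and CCNG1, which encodes cyclin G1, at 2475 and 7025. TRIM22, a RING-finger gene also induced by interferon, was at 9.90 and 414, or 41.8-fold higher (22.5 to 87.9). The lower member was WRAP53, a telomerase and Cajal body protein gene, at 495 and 177 (-1.48); it overlaps another gene model, so its value is uncertain. Thus MDM2, PPM1D and CCNG1, whose products restrain p53, were higher. MDM4 (0.18) and the further ubiquitin ligase genes RFWD2 (-0.07) and RCHY1 (-0.28) were not called.

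The p53 response element was searched in the 250 bases before each RefSeq start site of the human assembly GRCh38.p14, another build than the hg19 of the deposited files, so the coordinates belong to RefSeq alone. The search took 2 half-sites of 10 bases with a spacer of 0 or 1 base, at most 2 mismatches and the core C and G of each half-site fixed. Of the 20 genes with the highest differences none that had a promoter in the table held such a match, so the 5 sites shown here are from genes picked after their values were seen. Their genes are the measured members of the p53 circuit and target lists that held a match, and all of them were called higher. Capitals mark the matched element, and each line is 30 bases in the direction of the gene.
MDM2, chr12:68808918-68808947, plus strand: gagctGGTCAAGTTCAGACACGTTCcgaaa
FAS, chr10:88991304-88991333, plus strand: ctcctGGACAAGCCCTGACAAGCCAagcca
PANK1, chr10:89645251-89645280, minus strand: gtggcGGGCAGGACTGGGCATGCTCagtgg
GPX1, chr3:49358516-49358545, minus strand: tgcctGGGCCAGACCAGACATGCCTgctgc
AEN, chr15:88621301-88621330, plus strand: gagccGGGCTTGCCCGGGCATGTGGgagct
A promoter was found for 9737 measured genes (76.8%), of which 6.306% were called higher. A match stood before 56 of them, and 11 of these (19.64%, 10.23 to 32.43) were higher, against 6.229% of genes with no match. It is present before 0.564% of the 27305 genes in the table. The 11 genes were MDM2, FAS, PANK1, GPX1, AEN, PTCHD4, FLG, GRHL3, EFCAB10, DCP1B and METTL8. A match is a description of letters and does not show binding; elements elsewhere in a gene were outside the window.

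Targets that arrest the cell cycle were among the strongest. CDKN1A stood at 1178 normalized counts untreated and 48106 with nutlin-3a, 40.9-fold higher (38.6 to 43.3), and its share of all fragments went from 0.0072% to 0.296%. Of 20 measured arrest genes 9 were higher and 1 lower (median 0.85). BTG2, an antiproliferative cofactor of mRNA deadenylation, was at 164 and 3335, or 20.3-fold higher (17.4 to 23.9). TP53INP1, a stress-induced partner of p53, was at 177 and 2731, and GADD45A, a growth arrest gene, at 215 and 1301. The sestrins, which restrain mTORC1, differed from each other: SESN1 was at 165 and 2305 (3.79), SESN2 at 756 and 1357 (0.84, not called). In control shRNA cells SESN2 was at 129 and 1035, so the nutlin-3a values of the lines were closer than the untreated ones. The lower gene was GTSE1, a microtubule-associated G2 protein that moves p53 out of the nucleus, at 708 and 16.1.

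Death genes were higher at the receptors and at the mitochondrion. Of 26 measured members 15 were higher and 1 lower (median 1.25). FAS, a death receptor with a p53 element in its promoter window, was at 164 and 2573, 15.7-fold higher (13.4 to 18.4). Of the receptors for the ligand TRAIL, those called were TNFRSF10A, which signals death, at 345 and 840, TNFRSF10B, likewise, at 4097 and 12029, and the decoy TNFRSF10D at 583 and 2719. EDA2R, the receptor of ectodysplasin A2, was at 271 and 1941, and all 8 called genes of the TNF ligand and receptor list (17 measured) were higher. TP53I3, a quinone oxidoreductase, was at 852 and 16203, and SPATA18, a mediator of mitochondrial quality control, at 82.1 and 1672. The BCL2 family genes, named after their values were seen, differed by less: BAX was at 1416 and 3889 (1.46) and BBC3, which encodes PUMA, at 269 and 920 (1.77). PMAIP1, which encodes NOXA and is also driven by ATF4, was at 708 and 526 (-0.43), against 251 and 367 in control shRNA cells. SIVA1 was the lower member, at 645 and 240.

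The repair list was split. Of 18 measured genes 5 were higher and 4 lower, and the median was -0.09, or 0.06 after upper-quartile scaling and 0.29 without genes with shared reads, so it has no clear sign. POLH, the translesion polymerase eta, was at 314 and 2024, and RRM2B, the p53-induced subunit of ribonucleotide reductase, at 1419 and 6284. XPC and DDB2, which recognise lesions in nucleotide excision repair, were at 1015 and 3690 and at 860 and 2636. Among the 4 lower genes were the flap endonuclease FEN1 (2530 and 435) and the polymerase subunit POLD1 (1629 and 453), which also act at replication forks, and FANCC (491 and 220). PCNA, the sliding clamp and a known p53 target, was at 8234 and 13386 (0.70, not called).

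Among the p53 target lists the metabolic one had the largest share of calls: 20 of 30 measured genes were higher and 0 lower (median 1.63). FDXR, the mitochondrial ferredoxin reductase, was at 576 and 8596, or 14.9-fold higher (13.7 to 16.3). ALOX5, the leukotriene-forming lipoxygenase, was at 41.6 and 854, and ACER2, a Golgi ceramidase, at 74.2 and 950. GLS2, the liver-type glutaminase, was at 4.95 and 86.8. C12orf5, which encodes the fructose bisphosphatase TIGAR, was at 623 and 3434, and the element-bearing genes PANK1, a coenzyme A kinase, and GPX1, a glutathione peroxidase, were at 264 and 882 and at 1899 and 6270. ALDH3A1, an aldehyde dehydrogenase typical of A549, was already at 20011 untreated and stood at 115255.

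Membrane and secreted targets held the largest differences, mostly from genes near silence. Of 39 measured genes 24 were higher and 0 lower (median 1.55, also with the members listed at 0 set to their lower bound). CLCA2, a chloride channel regulator and adhesion protein, was listed at 0 untreated and reached 535 in the treated library; taking 3 fragments per library as the floor, it was at least 180.2-fold higher. VWCE, a von Willebrand domain gene, was listed at 0 and at 87.9, at least 29.6-fold higher. COL17A1, the hemidesmosomal collagen, was at 19.8 and 1219, 61.6-fold higher (39.7 to 101), and the riboflavin transporter SLC52A1 at 6.93 and 785. NTN1, the guidance cue netrin-1, was at 2.97 and 253, and UNC5B, its dependence receptor, at 104 and 486. PLXNB3, a semaphorin receptor, was at 18.8 and 753, INPP5D, the lipid phosphatase SHIP1, at 7.92 and 369, and PVRL4, which encodes nectin-4, at 4.95 and 288. Leaving out genes with shared reads, 14 genes had at most 3 fragments untreated and were called higher, 5 of them listed at 0. Genes so low untreated reach the mean of 30 only through the nutlin-3a library, so their direction was fixed by that filter. Others of that kind, named after their values were seen, were NLRP1, an inflammasome sensor (0 and 80.4), RGMA, a repulsive guidance molecule (0.99 and 257), and BLNK, a B-cell adaptor (0.99 and 183). Their counting intervals are wide, 46.2 to 10312 for the 260-fold ratio of RGMA, and only the lower bounds are informative.

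**Figure D2:**
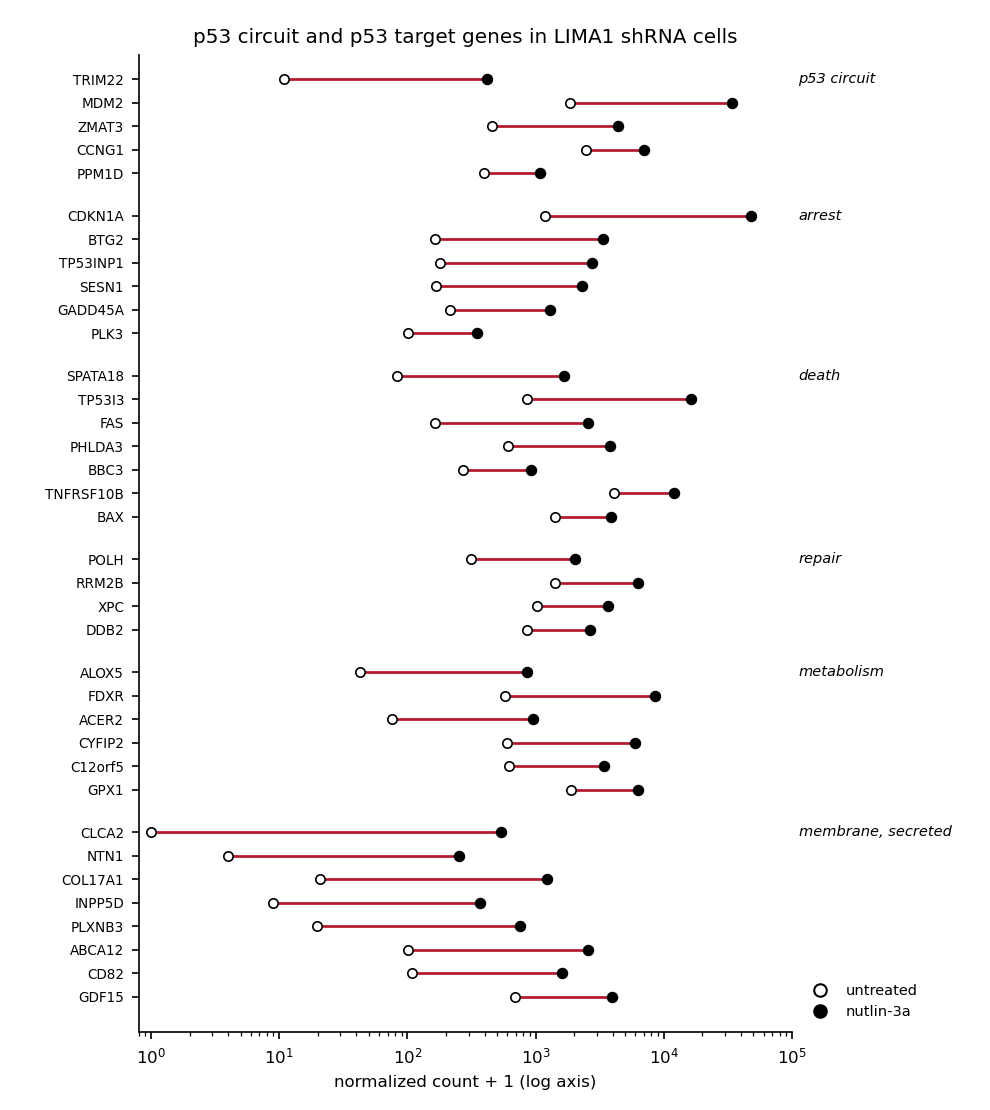
Normalized counts + 1 on a log axis for genes of the p53 circuit and p53 target lists in LIMA1 shRNA cells; the open point is the untreated and the filled point the nutlin-3a library, joined in red. Every gene drawn is higher with nutlin-3a, and CLCA2 starts at 0 counts.

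Beyond the target lists, the 20 highest differences at a mean of at least 150 included several matrix and signalling genes. SULF2, a heparan 6-O-endosulfatase, was at 330 and 7642, 23.2-fold higher (20.8 to 26.0), and ADAMTS7, a metalloprotease, at 45.5 and 1107. ACTA2, smooth muscle actin and a neighbour of FAS on the chromosome, was at 82.1 and 1915. GREB1, known as an oestrogen-induced gene, was at 19.8 and 524, the transcription repressor HES2 at 9.90 and 333, the dynein intermediate chain WDR63 at 8.91 and 390, and ABCA12, a lipid transporter of skin, at 99.9 and 2582. SUGCT, FAM196A and CYGB, the last with shared reads, also stood between 9.90 and 10.9 untreated and above 301 with nutlin-3a. The pseudogenes NUDT4P1 and NUDT4P2 sat at opposite ends, with 394 and 0.49 for the first and 5.79 and 312 for the second. Both have shared reads, and their sum was 400.3 untreated and 312.8 with nutlin-3a, so neither difference is certain.

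Extracellular matrix, guidance and surface lists leaned to the high side. In the laminin and integrin list 5 of 26 genes were higher and 0 lower (median 0.62): COL17A1, the anchoring collagen COL7A1 (1365 and 3878), ITGA3, a laminin-binding integrin (5421 and 14030), LAMB3, a chain of laminin 332 (1092 and 2406), and COL4A4 (571 and 1180). Of 31 plexin, semaphorin, netrin and ephrin genes 10 were higher and 1 lower; the semaphorins SEMA3F (304 and 859) and SEMA3B (908 and 2412) were higher, and SEMA6B was lower, at 226 and 61.1. Both mucins called, the gel-forming MUC5B (26820 and 62248) and the membrane mucin MUC16 (273 and 649), were higher; in control shRNA cells they were at 24268 and 29917 and at 252 and 282, differences of 0.30 and 0.16, and the difference between the lines was not tested. The list of actin cytoskeleton genes, closest to the role of EPLIN, does not hold ACTA2, which was higher by 4.53. Of its 39 measured genes 0 were higher, against 7.36% of all measured genes. The median was -0.08, or 0.07 after upper-quartile scaling, and 2 genes were lower (5.128%, near the 6.03% of all measured genes). Those 2 were the formin DIAPH3 (817 and 20.4), which also acts in cytokinesis, and FHL1 (105 and 38.6). Epithelial and mesenchymal lists had medians of -0.08 and 0.01, the first being 0.07 after upper-quartile scaling and the second between -0.11 with means of at least 10 and 0.46 with means of at least 150, with KRT19 at 2061 and 5840, EPCAM at 82.1 and 31.1 and the microfibril gene FBN1 at 176 and 844.

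Secreted factors were split. Of 28 measured genes 7 were higher and 4 lower, beside 7.36% higher and 6.03% lower over all measured genes. GDF15, a stress cytokine, was at 692 and 3918, the serine protease inhibitor gene SERPINE2 at 830 and 2862, and the macrophage growth factor CSF1 at 353 and 1039. The 4 lower genes were the neutrophil chemokines CXCL8 (83.1 and 31.1), CXCL2 (125 and 42.9) and CXCL3 (150 and 45.02) and the EGFR ligand EREG (1242 and 437). Classical factors of the senescence secretome such as IL1A, IL1B and MMP3 did not reach the mean for being measured. Interferon-stimulated genes were 6 higher and 2 lower of 30 (median 0.46), the lower share being near that over all measured genes. Besides TRIM22, the RNA sensor TLR3 (50.5 and 192) and IFI16 (139 and 479) were higher. The exonuclease ISG20 (174 and 40.7) and OAS3 (2525 and 1003) were the lower ones. TAP1, the peptide transporter of antigen presentation, was at 539 and 1991. The cytidine deaminases APOBEC3C and APOBEC3B went in opposite directions, at 367 and 2198 and at 202 and 16.1.

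Lysosomal and autophagy genes were a little higher: 39 of 46 lay above 0, 7 were higher and 0 lower (median 0.34). DRAM1, a p53-induced lysosomal membrane protein, was at 251 and 1057, and TFEB, the master regulator of lysosomal genes, at 108 and 251. The lysosomal enzyme genes FUCA1, GAA and NEU1 were higher by 1.26, 1.19 and 1.18. These last 4 differences are near the size of a call.

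The opposite pole was cell division. All 48 measured genes of mitotic entry and exit were below 0 and 42 were called lower (median -4.49), as were 23 of 29 origin licensing genes (median -2.52) and 34 of 42 kinetochore genes (median -2.996). Over all measured genes the share called lower is 6.03%.

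Among the regulators, E2F8, an atypical E2F repressor, was at 309 normalized counts untreated and 2.14 with nutlin-3a, which is 2 fragments, so that the 144-fold ratio has an interval of 39.5 to 1194. The activators E2F1 and E2F2 were at 936 and 35.4 and at 425 and 9.65, and the third activator, E2F3, at 662 and 563 (-0.23, not called). MYBL2, the B-MYB partner of MuvB, was at 3000 and 56.8, and FOXM1, which had shared reads, at 2899 and 98.3. The pocket proteins separated: RBL1 (p107), itself an E2F target, was at 1149 and 217, whereas RB1 was at 1153 and 1162 and RBL2 (p130) at 1508 and 1811. E2F4, the DREAM subunit, was at 1134 and 824 (-0.46). The list as a whole had 0 of 21 higher and 9 lower. Both directions of control were among the lower genes, with the activators E2F1 and E2F2 and the repressors E2F8 and RBL1. The repressors did not all go that way, as E2F7, also an atypical E2F, was at 390 and 579 (0.57, not called).

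Cyclins divided by phase. CCNB1 and CCNB2, the mitotic cyclins, were at 4433 and 254 and at 1628 and 49.3, and their kinase CDK1 at 3286 and 145, 22.7-fold lower (19.1 to 27.2). CCNA2, CCNE2 and the phosphatase CDC25C were lower by more than 3 as well, but have shared reads. The G1 cyclins CCND1 (5241 and 7177) and CCND3 (4325 and 6107) and the kinases CDK4 (2809 and 1849) and CDK6 (1837 and 2105) were not called. Of 5 measured genes named as CDK inhibitors CDKN1A alone was higher, and 4 were lower. The lower ones were CDKN3 (941 and 97.6), CDKN2C, which encodes p18 (1103 and 429), CDKN2D, which encodes p19 (58.4 and 23.6), and CDKN1B, which encodes p27 (1801 and 855). The higher level of p21 mRNA was thus not shared by the other measured genes so named.

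Replication genes were lower from licensing to nucleotide supply. MCM10, which helps start the helicase, was at 1294 and 10.7, 121-fold lower (65.4 to 252), and CLSPN, the checkpoint mediator claspin, at 813 and 8.58. CDC6 and CDT1, which load the MCM ring, were at 1989 and 116 and at 618 and 20.4, and CDC45, a part of the active helicase, at 683 and 15.01. The origin recognition subunits ORC2 to ORC5, which bind origins through the cycle, differed by -0.84 to -0.23. At the fork 25 of 32 genes were lower, among them POLE2 (379 and 19.3) and TOP2A, the topoisomerase of replicated chromosomes (12121 and 646), and 1 was higher, POLD4 (1.02, with shared reads). For dNTP supply RRM2, the S-phase subunit of ribonucleotide reductase, was at 3431 and 45.02, 76.2-fold lower (56.3 to 106), and thymidine kinase TK1 at 2408 and 84.7, while RRM1 was at 4357 and 1664. RRM2 and its p53-induced counterpart RRM2B thus stood on opposite sides. Thymidylate synthase, TYMS, which overlaps ENOSF1 on the other strand, was at 2875 and 2031 (-0.50, not called). In recombination 25 of 32 genes were lower, with EXO1 at 1007 and 30.02 and the helicase BLM at 886 and 34.3.

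In mitosis the kinases AURKB (870 and 11.8), NEK2 (1278 and 18.2) and PLK1 (3107 and 57.9) differed by -6.09, -6.06 and -5.72. AURKA, the centrosomal Aurora kinase, was lower by less, at 2754 and 541. BIRC5, which encodes survivin, was at 2499 and 51.5, and UBE2C, an E2 enzyme of the anaphase-promoting complex, at 1526 and 28.9. Constitutive subunits of that complex were not called, with CDC16 at -0.18, CDC23 at -0.73 and CDC27 at -0.79. CENPA, the centromeric histone, was at 540 and 7.50, and the NDC80 complex genes NUF2 and NDC80 at 670 and 13.9 and at 414 and 11.8. Of 32 kinesins 14 were lower and 0 higher: KIF4A (1592 and 24.7), KIFC1 (873 and 13.9), KIF2C (1230 and 23.6) and KIF11 (3468 and 183) move chromosomes and spindles, whereas the cargo motors KIF5B (7619 and 5241), KIF3B (1777 and 2537) and KIF1B (1920 and 1647) were not called. The condensin I subunit NCAPH was at 1240 and 18.2, and ESCO2, the cohesin acetyltransferase of S phase, at 899 and 17.2.

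**Figure D3:**
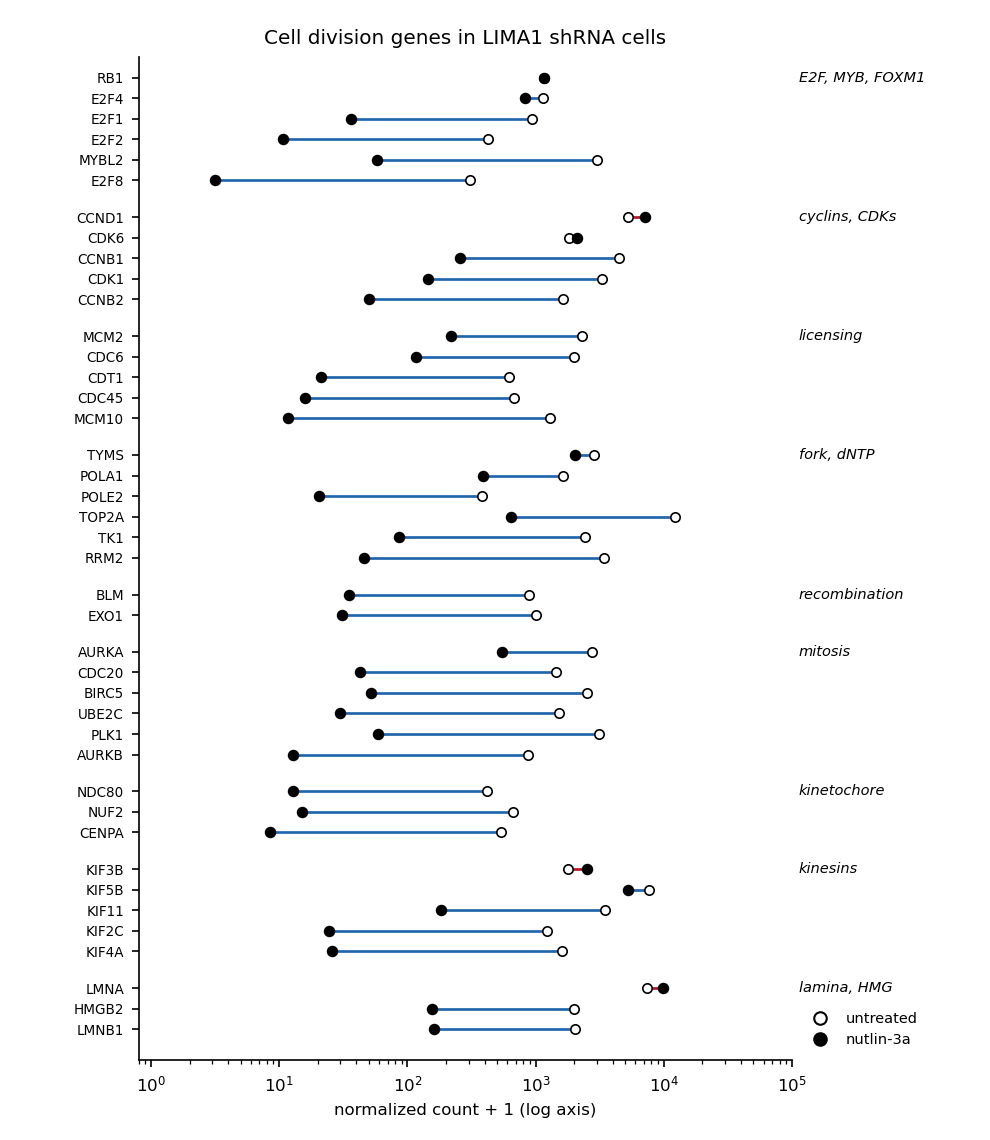
Normalized counts + 1 on a log axis for cell division genes in LIMA1 shRNA cells, drawn as open (untreated) and filled (nutlin-3a) points joined in blue where nutlin-3a is lower and in red where it is higher. RB1, E2F4, CCND1, CDK6, TYMS, KIF5B, KIF3B and LMNA show short lines among genes of the same lists that were lower by at least 1.

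Genes of chromatin and nuclear structure were lower in part. LMNB1, B-type lamin, was at 2044 and 160, 12.8-fold lower (10.8 to 15.2), while LMNA was at 7410 and 9805. HMGB2 was at 1984 and 155, the histone variants H2AFX and H2AFZ at 1410 and 214 and at 6892 and 1289, and UHRF1 and DNMT1, which maintain DNA methylation, at 663 and 50.4 and at 2921 and 644. EZH2, the Polycomb methyltransferase, was at 736 and 172. TUBA1B, an alpha tubulin, was at 35660 and 4341, and TUBB, often used as a reference gene, at 29138 and 6501. Of 30 nuclear pore and transport genes 10 were lower and 0 higher, led by the importin KPNA2 (8147 and 1974). Of 20 reference genes 2 were lower, TUBB and HPRT1 (1365 and 516), and 0 higher, and their median was -0.12, or 0.02 after upper-quartile scaling.

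DREAM binds the CHR element and works together with CCAAT boxes, and E2F sites are used by E2F and RB family proteins. Of the 20 genes with the lowest differences, 4 held a CHR (TTTGAA or TTCGAA, on either strand) in the 250 bases before a RefSeq start, and their sites are shown with the CHR in capitals because all 4 lay within 34 bases of the start and all 4 promoters also held CCAAT.
CENPA, chr2:26786026-26786055, plus strand: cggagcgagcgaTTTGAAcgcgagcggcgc
KIF4A, chrX:70290058-70290087, plus strand: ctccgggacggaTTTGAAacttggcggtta
PLK1, chr16:23678848-23678877, plus strand: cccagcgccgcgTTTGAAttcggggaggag
CKAP2L, chr2:112764609-112764638, minus strand: acaggcgcggcgTTTGAAgaaaaactgtca
These genes were at 540 and 7.50, 1592 and 24.7, 3107 and 57.9, and 596 and 10.7 normalized counts. A CHR of 6 letters is common, and stood before 17.23% of the 27305 RefSeq genes. Among the 1326 measured genes with a CHR 9.804% were lower (8.256 to 11.53), against 5.326% of those without and 5.936% of all genes with a promoter. With a CHR and CCAAT together the share was 13.32% of 713 genes, with CCAAT alone 6.386%, with a CHR alone 5.71% and with neither 4.619%. With an E2F site (TTTGGCGC, TTTCCCGC, TTTGCCGC or TTTCGCGC, on either strand, present before 3.399% of RefSeq genes) 13.12% of 564 genes were lower, against 5.494% without. The higher calls did not follow the CHR, at 6.637% with and 6.254% without it.

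Genes of ATF4 and amino acid supply were also lower in this line. ATF4 is the transcription factor of the integrated stress response, which turns on amino acid uptake and synthesis, tRNA charging and, when stress lasts, CHOP. Of 36 measured genes 17 were lower and 2 higher (median -0.93), against 5 lower, 3 higher and a median of -0.20 for the same genes in control shRNA cells; the difference between the lines was not tested. The 2 higher genes, GDF15 and NUPR1 (35.6 and 431), encode stress factors, and GDF15 is also a p53 target. ATF4 mRNA was at 7783 and 4059 (-0.94), just under the size of a call.

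An ATF4 site (TGATGCAA on either strand) stood before 57 measured genes, 6 of them lower: CHAC1, BCAT1, SLC1A5, CEBPG, AARS and JDP2 (10.53%, 3.962 to 21.52, against 5.909% without). It is found before 0.9669% of RefSeq genes. The sites of CHAC1 and SLC1A5 are shown with the match in capitals, that of CHAC1 being read on the opposite strand.
CHAC1, chr15:40953251-40953280, plus strand: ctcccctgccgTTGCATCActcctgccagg
SLC1A5, chr19:46784893-46784922, minus strand: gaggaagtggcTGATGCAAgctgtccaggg

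CHAC1, which degrades glutathione, was at 602 normalized counts untreated and 85.8 with nutlin-3a, 7.02-fold lower (5.55 to 8.97); the control shRNA libraries held 37.7 and 56.6. DDIT3, which encodes CHOP, was at 680 and 242, against 124 and 172 in control cells. TRIB3, a pseudokinase induced by ATF4 and CHOP, was at 4467 and 1622, against 1683 and 1403. In each of the 3 the untreated LIMA1 shRNA library was the highest of the 4 libraries, and the nutlin-3a value lay nearer to those of the control cells. The untreated LIMA1 shRNA library was also the highest for the 4 amino acid and folate genes that follow and for STC2. In these genes, as in TRIB3, the nutlin-3a value was below the untreated one in both lines. ASNS, asparagine synthetase, was at 2584 and 848 (control 1001 and 601), and SLC1A5, the glutamine transporter, at 10603 and 3693 (control 6113 and 3363). PHGDH, the first enzyme of serine synthesis, was at 1563 and 472 (control 691 and 196), and the mitochondrial folate enzyme MTHFD2 at 4873 and 1349 (control 2784 and 1379). STC2, a secreted glycoprotein, was at 2950 and 468 (control 432 and 176). Members that were not called included the cystine transporter SLC7A11, at 10451 and 9879, and PSAT1, at 6338 and 4035.

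**Figure D4:**
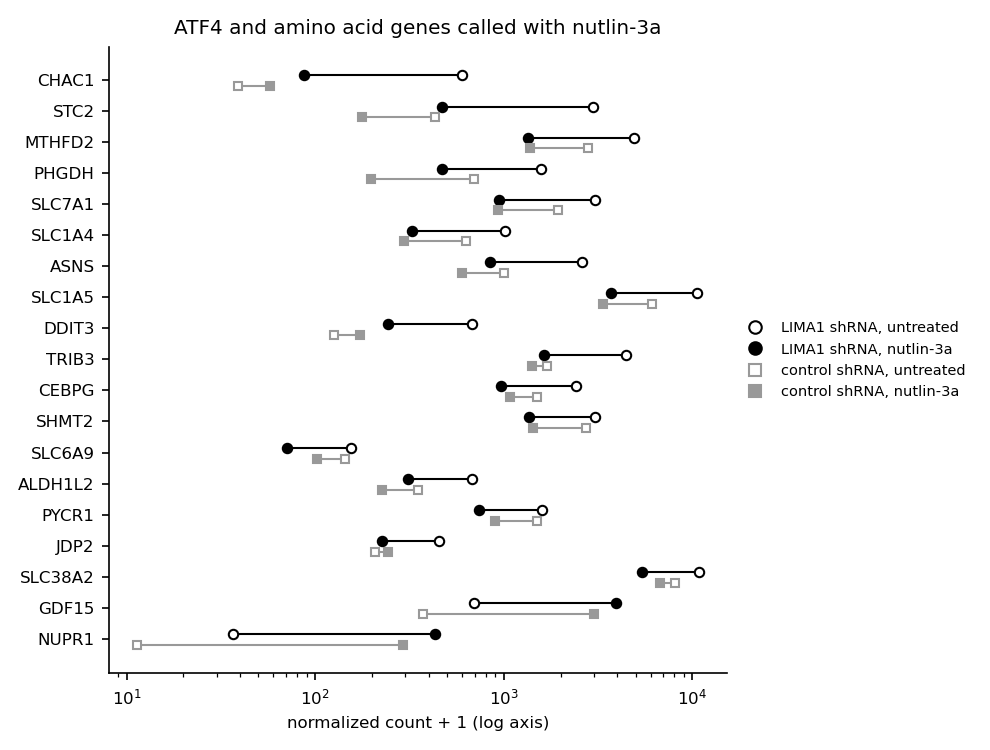
Normalized counts + 1 on a log axis for the 19 ATF4 and amino acid genes called with nutlin-3a in LIMA1 shRNA cells (circles), with the same genes in control shRNA cells (squares); open symbols are untreated and filled symbols nutlin-3a libraries. For CHAC1, DDIT3 and JDP2 the filled circle lies left of the open one, whereas the filled square lies right of the open one.

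Neighbouring stress programmes were mixed. Of 20 cytosolic tRNA synthetases, several of them ATF4 targets, 5 were lower and 0 higher (median -0.66), led by GARS (6292 and 2855), CARS (2144 and 1004) and AARS (9807 and 4644). By contrast 0 of 26 genes of the endoplasmic reticulum chaperone and unfolded protein list were called (median -0.0025, or 0.15 after upper-quartile scaling), with the chaperone HSPA5, or BiP, at 14444 and 11832. Cytosolic chaperones had a median of -0.49, HSP90AA1 standing at 31208 and 14994 and the small heat shock gene HSPB8 at 311 and 1351. NRF2 and sterol genes had medians of 0.01 and 0.00 with 1 gene called on each side, CBR3 (106 and 25.7) against GPX2 (18680 and 38142) and EBP (1678 and 746) against TM7SF2 (288 and 1406). Of 34 hypoxia and glycolysis genes 3 were lower and 0 higher (8.824% lower, near the share over all genes), with carbonic anhydrase CA9 at 482 and 93.3.

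Lists of the growth machinery differed in direction. All 34 ribosome biogenesis genes lay below 0, 6 of them called, with a median of -0.64; DKC1, which encodes dyskerin, was at 3101 and 1289 and NOP56, a box C/D protein, at 5585 and 2325. MYC, which drives this programme, was at 1847 and 723, 2.56-fold lower (2.34 to 2.80), and among early response genes FOSL1 was higher, at 171 and 760. Of 31 proteasome genes 30 lay below 0 but none was called (median -0.36, or -0.21 after upper-quartile scaling). For 77 ribosomal protein genes the median was 0.12, or 0.27 after that scaling, and 1 was called, RPS27L, a p53-induced paralog, at 2624 and 9291. None of 47 nuclear respiratory chain genes was called (median -0.03, or 0.12 after that scaling).

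**Figure D5:**
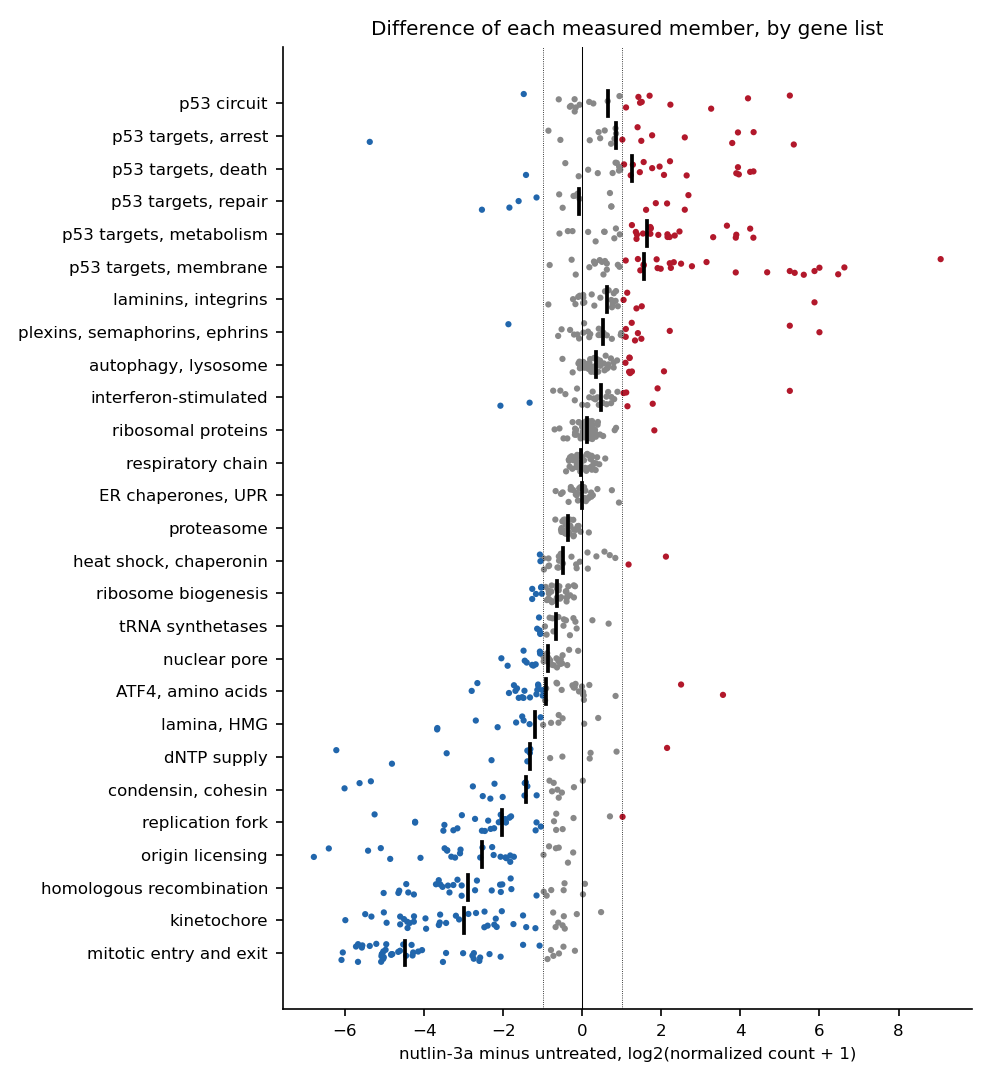
Difference between the nutlin-3a and untreated LIMA1 shRNA libraries, in log2(normalized count + 1), for each measured member of 27 gene lists; the black bar is the list's median, red points are called higher and blue points lower. Medians run from 1.63 for metabolic p53 targets to -4.49 for mitotic entry and exit.

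Among noncoding genes the lnc- models leaned to the high side. Of the 643 measured lnc- models 114 were higher and 36 lower (median 0.27), beside 7.36% higher and 6.03% lower over all measured genes. The list of nuclear noncoding and small nucleolar host genes had a median of 0.04. It was -0.06 with means of at least 150 and 0.44 without shared-read genes, so that list has no clear sign. NEAT1, the scaffold of paraspeckles and a p53 target, was at 4730 and 15332, 3.24-fold higher (3.14 to 3.35). MALAT1, with shared reads, was at 274 and 954, and SNHG1, a small nucleolar RNA host gene with shared reads, at 825 and 292.

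Set beside the control shRNA cells, with which no library is shared, 600 of the 933 higher genes (64.31%) were also higher by at least 1 there, against 5.55% of all measured genes, and they made up 85.23% of the genes higher in control cells. In all 909 (97.43%) lay above 0, against 48.43% of all measured genes. Of the 764 lower genes 578 (75.65%) were also called lower, against 5.6% of all measured genes, and 747 (97.77%) lay below 0, against 51.57%. These 578 were 81.41% of the genes lower in control cells. MDM2 was at 1844 and 27580 in control cells and CDKN1A at 1066 and 34078. For 13 genes the control cells gave a call in the other direction. No test of a difference between the lines was possible with 1 library per group.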

How the data were processed

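RNA sequencing of 4 A549 libraries was used, 1 per group, with groups taken from the titles. The submitters' processing notes name hg19, Bowtie2 2.0.12, Cuffnorm 2.2.1 and bcl2fastq 1.8.3 without saying what each did; no annotation is given in the sources used here. What the authors deposited is a signal for each gene. Judged by the values, it is a fragment count divided by 1 factor per library: 85.5% to 86.3% of low values lay within 0.1 of a whole multiple of 1 step. Since 95% had been required for recovering whole reads, count tests were not used. The bracketed intervals of ratios still rest on fragment counts read from these values and hold only as far as that reading does. Measured genes with a value that was not whole (1544) are said to have shared reads where named, and get no interval; their reads may be split with overlapping or near-identical models. Values too high to check got intervals from the nearest whole count. The labels name no molecular identifiers. Depth was 15.2 to 16.7 M fragments, which gives all 4 libraries a like precision.

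The members, gene lists and motifs were chosen with earlier results of these data known. The text names MDM2, CDKN1A and LIMA1, the 20 highest and 20 lowest differences at a mean of at least 150 without small RNAs and lnc- models, up to 5 called members per list and direction, members under the size of a call where a list is described by role, any member of lists of 12 or fewer genes, and genes of opposite direction in control cells; a few that this rule selects are left out. Named after their values were seen were AEN, ASNS, AURKA, BAX, BBC3, BIRC5, BLNK, C12orf5, CCNB1, CCNE2, CDC6, CEBPG, CSF1, DDIT3, GPX1, JDP2, KIF11, NEU1, NLRP1, PANK1, PPM1D, PVRL4, RBL1, RGMA, RRM1, TNFRSF10A, TRIB3 and the called genes with a p53 or ATF4 match. Calling was tested on simulated data. Promoters are from RefSeq (GRCh38.p14), matched by symbol at any listed start; 65.81% of higher and 75.65% of lower genes matched, so no share over the called genes is given. Alternatives were other pseudocounts, filters, scalings, sizes and windows. Python 3.11.15, numpy 2.4.6, pandas 2.3.3, scipy 1.17.1 and matplotlib 3.10.9 were used.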

Additional observations from a re-analysis of the deposited data

Results flagged for a closer look

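For 13 genes the nutlin-3a difference in LIMA1 shRNA cells and that in control shRNA cells were both past the size of a call and had opposite signs; the difference between the lines was not tested. In LIMA1 shRNA cells they stood at 1.41 (ARPC4-TTLL3), -6.59 (C9orf69), 5.37 (DYNLL1-AS1), 1.84 (LOC102724316), -6.72 (PTOV1-AS1), 1.003 (RNF103-CHMP3) and 6.06 (UBA6-AS1). The noncoding models were at 1.24 (lnc-AC127496.3-1), 1.65 (lnc-CELA3A-1), 4.61 (lnc-LTBP3-2), 1.34 (lnc-STK4-1), -1.03 (lnc-USP34-1) and 1.23 (lnc-XRCC5-1). Shared reads were present in 12 of the 13, among them readthrough models and antisense genes, so their values depend on how fragments were divided between overlapping models. The exception, lnc-USP34-1, was at 163 and 79.3 normalized counts in LIMA1 shRNA cells and at 71.5 and 183 in control shRNA cells.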

How the results depend on the processing

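No paired analysis was possible because there is 1 library per group and the titles carry no replicate numbers. Against 933 genes higher and 764 lower, no filter on low values gave 4268 and 1836, a mean of at least 10 gave 1403 higher, a mean of at least 150 gave 478 higher and 572 lower, a size of 0.5 gave 2343 and 2246, and a size of 2 gave 252 and 292. Thus lower genes outnumbered higher ones among well-covered genes and large differences. Upper-quartile scaling moved all genes by 0.15 and gave 1204 higher and 624 lower (65.86% higher, against 54.98%); with it the medians were 0.43 for antigen processing, -0.21 for the proteasome and 0.27 for ribosomal proteins, which are read relative to that shift. Medians close to 0 changed sign with that scaling: actin 0.07, epithelial 0.07, respiratory chain 0.12, unfolded protein 0.15, p53 repair 0.06, reference genes 0.02 and Notch and Wnt 0.04. The noncoding p53 targets, 3 measured genes with a median of 0.74, had 0.29 without a filter and 1.70 with a mean of at least 150 or without shared-read genes. Across the alternatives 586 list medians stayed inside the interval set by the ordered differences of the list's members, which is wide for short lists, and 4 fell outside. Of the 590, 18 changed sign, in 11 of 59 lists, and 26, in 15 lists, shifted by more than 0.25, among them p53 repair (0.29 without shared-read genes), the mesenchymal list (0.46 with a mean of at least 150), small nucleolar host genes (0.44 without shared-read genes, against 0.04) and APOBEC3 (2.58 with a mean of at least 150, against 0.91). Of values for single genes, 264 stayed within their counting interval and 72 moved, none of them changing sign. A pseudocount of 30, added after seeing the data, gave 649 and 621. Within 100 bases of the start the share of lower genes was 15.05% with a CHR, 22.81% with a CHR and CCAAT and 20.51% with an E2F site, and before the first listed start alone, also added later, 12.46% and 21.67% for the first 2; the cause was not tested. The 56 and 57 genes with a p53 element or ATF4 site leave wide intervals.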
